A study of Mus musculus with 8 samples.

Results

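Striatal projection neurons were followed in 8 brain arrays through 9 genes used as their markers: Ppp1r1b, Adora2a, Rgs9, Pde10a, Gpr6, Rasd2, Foxp1, Bcl11b and Adcy5. They were chosen by name, and each was read through the probe set that the platform annotation pairs with its symbol alone. Of the 9 genes 8 had such a probe set, 1 each, among 19938 genes measured. Adora2a, an adenosine receptor gene of indirect-pathway neurons, was not analysed here. The RNA came from frozen brains of adult males, 2 to 4 months old, of which 4 are labelled TNF-/-, lacking tumour necrosis factor, and 4 TNF+/+ on C57BL/6. For the TNF-/- mice no allele or strain is named, and the labels name no treatment in either group. The labels call each sample a biological replicate, and each was hybridised to an Affymetrix Mouse Gene 1.0 ST array. The signal is on the log2 scale, so a difference of 1 is a doubling.

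Projection neurons make up most of the neurons of the striatum, the input station of the basal ganglia, and use GABA. Those of the direct pathway carry the dopamine receptor Drd1 and the peptide genes Tac1 and Pdyn, and those of the indirect pathway carry Drd2, Adora2a, Gpr6 and Penk. Dopamine acts on both kinds through cyclic AMP: adenylyl cyclase makes it, phosphodiesterases break it down, and the DARPP-32 protein of Ppp1r1b relays the signal to protein phosphatase. Several of these genes are also active elsewhere, Foxp1 and Bcl11b in cortical neurons among others, so in lysates of brain they are not a pure reading of the striatum. A lower signal in bulk RNA may mean fewer cells of a type or less RNA per cell, which cannot be told apart.

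Promoter sequences of the pair of members that ran most opposite to each other across arrays, Gpr6 and Rgs9, are shown to set those genes side by side. They are the 250 bases before the outermost RefSeq start (GRCm38.p6), at chr10:41072291-41072540 on the minus strand for Gpr6 and chr11:109298182-109298431 on the minus strand for Rgs9, both 5′ to 3′. Capitals mark the motif TGACGTCA, the cyclic AMP response element, which reads the same on both strands.
Gpr6: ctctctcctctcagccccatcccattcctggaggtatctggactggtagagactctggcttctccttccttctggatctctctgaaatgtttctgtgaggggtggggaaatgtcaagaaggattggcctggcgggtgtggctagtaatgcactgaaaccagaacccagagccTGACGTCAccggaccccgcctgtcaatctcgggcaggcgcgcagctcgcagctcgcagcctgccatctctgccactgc
Rgs9: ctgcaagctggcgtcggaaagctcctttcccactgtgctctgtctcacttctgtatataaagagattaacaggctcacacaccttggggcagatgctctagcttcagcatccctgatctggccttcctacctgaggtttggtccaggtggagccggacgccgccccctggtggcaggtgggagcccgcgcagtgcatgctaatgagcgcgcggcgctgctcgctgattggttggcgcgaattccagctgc
The Gpr6 window held the motif once, starting 78 bases before the start. It was found in 1 of the 10 windows of the 7 members that have one in the RefSeq table, and in 1.55% of all 32851 windows of that length. The forkhead core TAAACA, searched on both strands because Foxp1 encodes a forkhead factor, was found in 3 of the 10 windows, all of Foxp1 itself, and in 12% of all windows. Both motifs were chosen after these sequences had been read, and a match is a description of the letters, not a binding site.

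The arrays were alike in overall signal, with medians of 5.03 to 5.11 and correlations among them (Pearson's r over probe sets) of 0.986 to 0.993. TNF+/+ arrays 3 and 4 stood apart on the first principal component (24% of the variance), with scores of 22.1 and 37.2 against -4.3 or lower elsewhere. TNF+/+ array 1 stood apart in cerebellar markers: the mean of 9 was 7.01 there and 5.20 to 5.33 in the other arrays. The targeted gene went against the labels, with a Tnf signal of 5.92 ± 0.22 (SD, n = 4) in arrays labelled TNF-/- and 4.53 ± 0.29 in those labelled TNF+/+ (limma, adjusted p = 0.0278). The groups did not overlap and lay 0.74 apart. This call was lost when any 1 array other than TNF+/+ array 2 was left out (limma, adjusted p = 0.0562 to 0.114). The Tnf difference itself stayed at 1.29 to 1.52 with 1 array left out. The position of its probes was not used here, and probes outside the deleted part check nothing. All directions below are those of the arrays as labelled. Striatal markers differed in signal. Penk signal ran from 11.40 to 11.71, Tac1 from 9.83 to 9.99, Drd1 from 8.26 to 8.51 and Drd2 from 7.43 to 8.13, all above the array medians. Others had means below those medians, among them Isl1 (4.94) and Sp9 (4.06), both used in the pathway means below.

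Of the 8 members measured, none passed the test between genotypes over all probe sets (limma, adjusted p under 0.05), against 0.0816% of 35556 probe sets (0.0366% higher and 0.045% lower), and the Significance Analysis of Microarrays (SAM), the method the study's design names, called none either, against 0.149%. At an unadjusted p under 0.05 there was 1 of 8, against 11.7% of 19938 genes. In TNF-/- the mean was higher for 5 members and lower for 3, and their median difference was 0.05 beside -0.01 over all genes. The largest difference was that of Gpr6, which was lower, and it was the only member whose groups did not overlap; over all genes 7.66% had no overlap, 4.16% being higher and 3.5% lower.

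**Figure D1:**
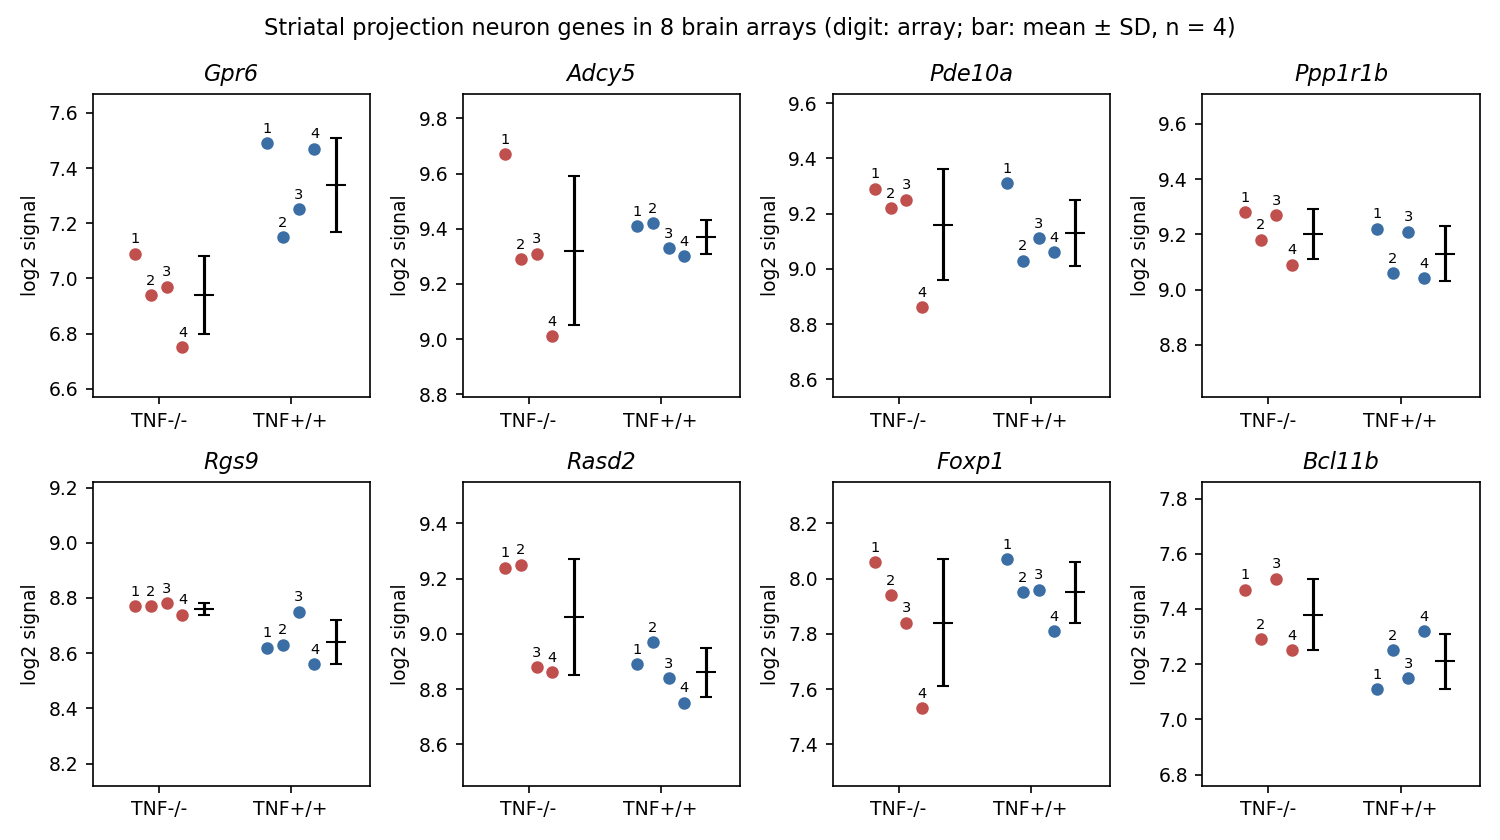
Log2 signal (vertical axis, same span in each panel) of the 8 measured members in each array, as red points for TNF-/- and blue points for TNF+/+, with the array number above each point and the mean ± SD (n = 4) as a black bar. The Gpr6 points of TNF-/- (6.75 to 7.09) all lie below those of TNF+/+ (7.15 to 7.49), and TNF-/- array 4 is the lowest point for Gpr6, Adcy5, Pde10a and Foxp1.

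The receptor gene among the members, Gpr6, encodes a G protein-coupled receptor of indirect-pathway neurons that raises cyclic AMP. Its signal was 7.09, 6.94, 6.97 and 6.75 in TNF-/- arrays 1 to 4 and 7.49, 7.15, 7.25 and 7.47 in TNF+/+ arrays 1 to 4. Every array labelled TNF-/- thus lay below every array labelled TNF+/+, but the gap between the nearest of them was only 0.06, less than the SD within either group (0.14 and 0.17). The difference was -0.40 ± 0.10 (SE; 95% interval -0.64 to -0.17), or 0.755-fold, with an adjusted p of 0.259 by limma and an unadjusted p of 0.00359. The exact two-sided permutation p of this gene alone was 0.0286, the smallest that 4 against 4 can give. With 1 array left out the difference ranged from -0.47 to -0.34 (limma, adjusted p = 0.217 to 0.514); since the groups do not overlap, leaving out an array could not turn its direction.

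Among the genes of cyclic AMP signalling, Adcy5, the main adenylyl cyclase of the striatum, had signals of 9.67, 9.29, 9.31 and 9.01 in the arrays labelled TNF-/- and of 9.41, 9.42, 9.33 and 9.30 in the others. The arrays labelled TNF-/- held both the highest and the lowest value, and their SD was 0.27 against 0.06. The difference in means was -0.05 ± 0.12 (SE; 95% interval -0.33 to 0.24; limma, adjusted p = 0.903). Without TNF-/- array 4 it was 0.055 instead, so its direction rests on 1 array.

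Pde10a encodes a phosphodiesterase of cyclic AMP and cyclic GMP that is concentrated in striatal projection neurons. Its signals of 9.29, 9.22, 9.25 and 8.86 in arrays labelled TNF-/- and 9.31, 9.03, 9.11 and 9.06 in the others overlapped, with TNF-/- array 4 below all the rest. The difference was 0.03 ± 0.11 (SE; 95% interval -0.22 to 0.27; limma, adjusted p = 0.939), and leaving out single arrays turned its direction: it was -0.017 when TNF-/- array 1 was dropped, -0.002 for TNF-/- array 3, -0.003 for TNF+/+ array 2, and 0.125 for TNF-/- array 4. Pde10a lies on chromosome 17, as Tnf does, 454 measured genes away.

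Ppp1r1b, the DARPP-32 gene, had signals of 9.28, 9.18, 9.27 and 9.09 in the arrays labelled TNF-/- and 9.22, 9.06, 9.21 and 9.04 in those labelled TNF+/+. These values were interleaved and spanned only 0.23 over all 8 arrays. The difference was 0.07 ± 0.07 (SE; limma, adjusted p = 0.727), and the 95% interval, -0.09 to 0.23, holds changes from a small loss to a gain of the size of that span.

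Of the G protein regulators, Rgs9 encodes a protein that shortens signalling from dopamine receptors. Its signal was 8.77, 8.77, 8.78 and 8.74 in the arrays labelled TNF-/- and 8.62, 8.63, 8.75 and 8.56 in the others. The first group was tightly bunched (SD 0.02) and overlapped with the second only through TNF+/+ array 3. The difference was 0.12 ± 0.06 (SE; 95% interval -0.002 to 0.25; limma, adjusted p = 0.467). Rasd2, which encodes the small GTPase Rhes of the striatum, had signals of 9.24, 9.25, 8.88 and 8.86 under TNF-/- and 8.89, 8.97, 8.84 and 8.75 under TNF+/+. TNF-/- arrays 1 and 2 were above every other array, and TNF-/- arrays 3 and 4 lay within the range of TNF+/+. Its difference was 0.20 ± 0.11 (SE; 95% interval -0.05 to 0.44; limma, adjusted p = 0.544), and without TNF-/- array 2 it was 0.13.

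Both transcription factors, Foxp1 and Bcl11b (CTIP2), are needed for the development of these neurons. Foxp1 signal was 8.06, 7.94, 7.84 and 7.53 in the arrays labelled TNF-/- and 8.07, 7.95, 7.96 and 7.81 in those labelled TNF+/+. The groups overlapped, and the value of TNF-/- array 4 was again below all others. The difference was -0.11 ± 0.11 (SE; 95% interval -0.37 to 0.15; limma, adjusted p = 0.755), and -0.002 without TNF-/- array 4. Bcl11b signal was 7.47, 7.29, 7.51 and 7.25 under TNF-/- and 7.11, 7.25, 7.15 and 7.32 under TNF+/+. Arrays 1 and 3 of TNF-/- were the highest, and TNF+/+ array 4 reached into the range of TNF-/-. The difference was 0.17 ± 0.08 (SE; 95% interval -0.01 to 0.35; limma, adjusted p = 0.483).

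Further genes of striatal projection neurons, from a list of 41 ordered by role, were compared in the same fit. None of the 40 measured passed over all probe sets by limma or SAM, 25 had a higher and 15 a lower mean in the arrays labelled TNF-/-, and the median difference was 0.03. Of the 40 genes 8 reached an unadjusted p under 0.05, and 7 of these were higher. This stands beside 11.7% of all genes and 15.6% of the 9969 genes brighter than the median gene. Over all genes the higher ones were also more frequent at that level, with 1470 higher and 854 lower. Groups did not overlap for 5 of the 40, namely Ptpn5, Pde1b, Gng7, Isl1 and Rgs14, beside 7.66% of all genes and 8.87% of the brighter ones. With array 1 of either group left out there were 8 such genes, beside 14.7% and 12% of all genes.

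**Figure D2:**
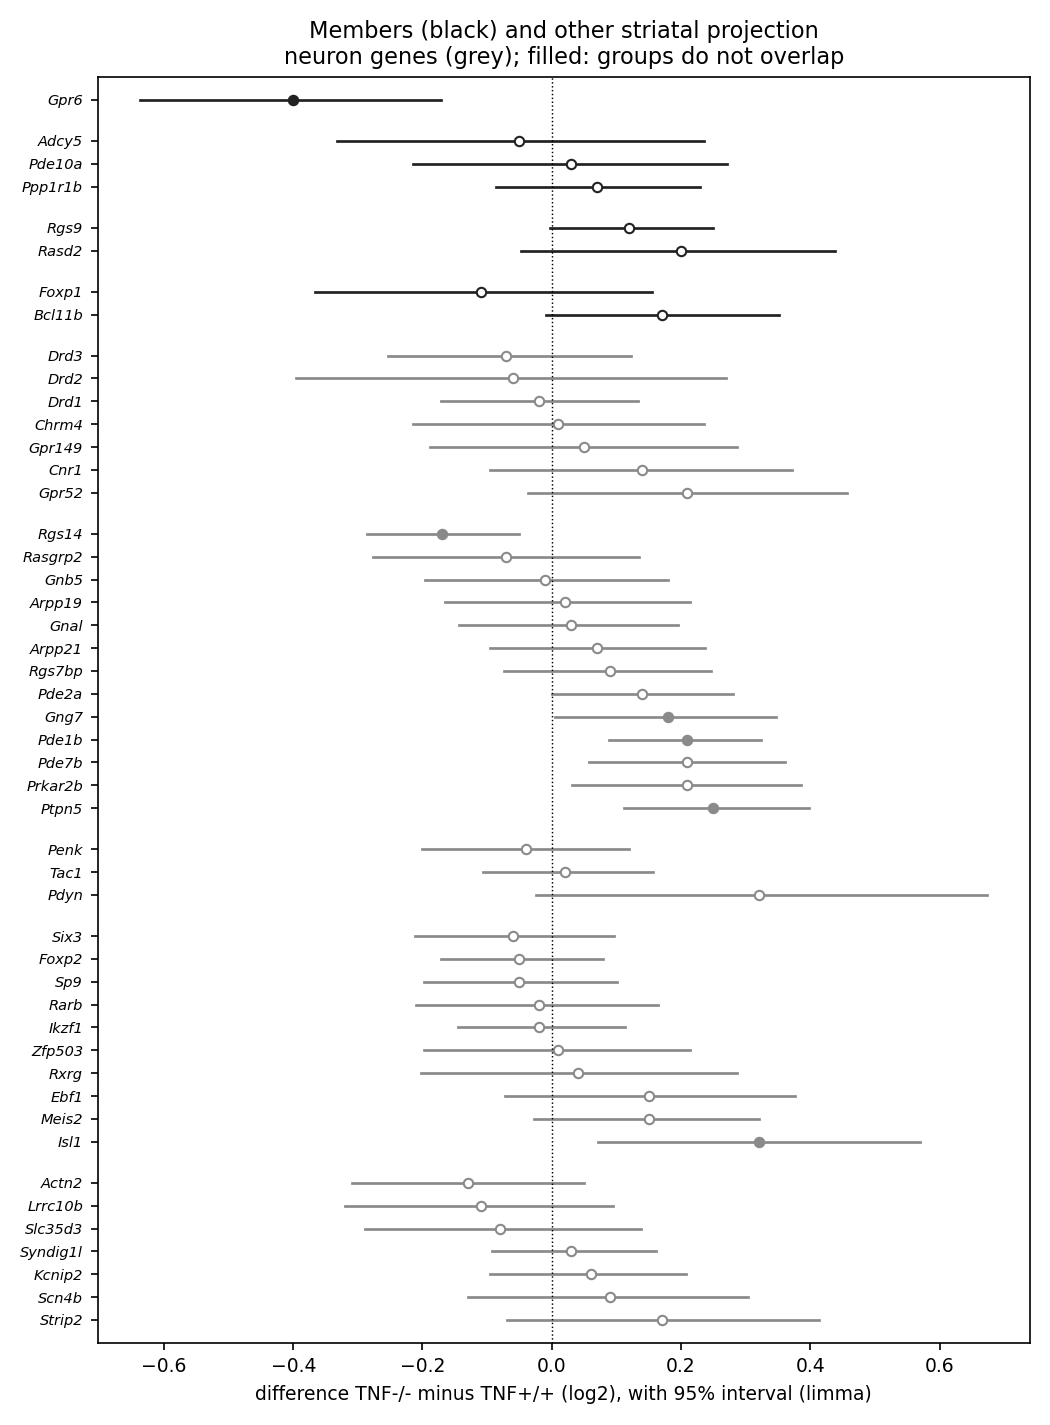
Difference TNF-/- minus TNF+/+ on the log2 scale (horizontal axis) with its 95% interval from limma, for the 8 members (black) and 40 other striatal projection neuron genes (grey), grouped by role from receptors to channels and others; filled points mark genes whose groups do not overlap. Gpr6 is the lowest point at -0.40, and the intervals of 7 members include 0.

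Of the 8 genes at an unadjusted p under 0.05, 7 belong to the 13 genes of cyclic AMP and G protein signalling, beside 11.7% of all genes and 15.6% of the brighter ones; the roles were not tested against each other. Ptpn5, which encodes the striatum-enriched phosphatase STEP, had signals of 8.66, 8.56, 8.79 and 8.60 in the arrays labelled TNF-/- and 8.41, 8.37, 8.36 and 8.44 in the others. The higher group began 0.12 above the top of the lower one, and the difference was 0.25 ± 0.06 (SE; limma, adjusted p = 0.249). Pde1b, a calcium-activated phosphodiesterase gene, had signals of 10.14, 10.15, 10.10 and 10.08 under TNF-/- and 9.96, 9.87, 9.85 and 9.96 under TNF+/+. Here too the groups were apart, by 0.12, with a difference of 0.21 ± 0.05 (SE; limma, adjusted p = 0.256). Pde7b, a further phosphodiesterase gene, stood at 0.21 ± 0.07 (SE) and Prkar2b, a regulatory subunit gene of protein kinase A, at 0.21 ± 0.08, both with overlapping groups (limma, adjusted p = 0.351 and 0.402). Rgs14, which also marks a hippocampal field, was at -0.17 ± 0.05 (limma, adjusted p = 0.336).

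Among the genes of the single pathways, the dopamine receptors and the main peptide precursors had intervals that include 0. Drd1 stood at -0.02 ± 0.07 (SE; 95% interval -0.17 to 0.13) and Drd2 at -0.06 ± 0.15 (-0.40 to 0.27). Drd2 signal was 8.13, 8.07, 7.69 and 7.43 in the arrays labelled TNF-/- and 7.94, 7.89, 7.87 and 7.86 in the others, so that its SD was 0.33 against 0.03. Penk, the enkephalin precursor gene, was at -0.04 ± 0.07 and Tac1, the substance P precursor gene, at 0.02 ± 0.06. Pdyn, the dynorphin precursor gene of the direct pathway, was at 0.32 ± 0.15 (SE; 95% interval -0.03 to 0.67; limma, adjusted p = 0.49), with its highest signal, 6.49, in TNF-/- array 3. Isl1, a transcription factor gene of direct-pathway and of cholinergic neurons, was at 0.32 ± 0.11 (limma, adjusted p = 0.372), with a low signal of 4.63 to 5.32.

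Set side by side, the mean of 7 direct-pathway genes ran from 6.79 to 6.98 under TNF-/- and from 6.74 to 6.77 under TNF+/+. The mean of the 5 measured indirect-pathway genes, Gpr6 among them, was 7.65 to 7.80 and 7.74 to 7.87. The first pair of ranges did not overlap and the second did. The mean of the 40 other striatal genes, the direct-pathway ones among them, was 7.54 to 7.63 and 7.52 to 7.54. Ranges without overlap were also seen for thalamic and microglial markers, as given below. The largest differences in the direct list were those of Pdyn and Isl1 (0.32 each), followed by Ebf1 (0.15). Of its 7 genes 5 were higher and 2 lower, with Slc35d3 the lowest at -0.08. In the indirect list the largest was that of Gpr6, which was lower, followed by Gpr52, which was higher at 0.21. Of its 5 genes 1 was higher and 4 were lower. No test was made of these means. In the direct list 1 of 7 genes, Isl1, had no overlap between groups and in the indirect list 1 of 5, Gpr6, beside 7.66% of all genes.

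Across the 8 arrays the members were related to each other only in part. Among their 28 pairs the median of Pearson's r was 0.42, and 21 pairs were positive (75%). Over all 198751953 pairs of measured genes the median was 0.01, and over pairs of genes brighter than the median gene it was 0.06, with 54.9% positive. An r of 0.7 or more was found for 4 pairs (14.3%), beside 6.12% of the pairs of brighter genes. None of the 28 pairs passed after adjustment (exact permutation test, two-sided, Benjamini-Hochberg over the 28), 4 had an unadjusted p under 0.05 by Pearson's r and 2 by Spearman's rho. Without TNF-/- array 1 the median r was 0.21, and with deviations from the group means in place of signals it was 0.49.

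**Figure D3:**
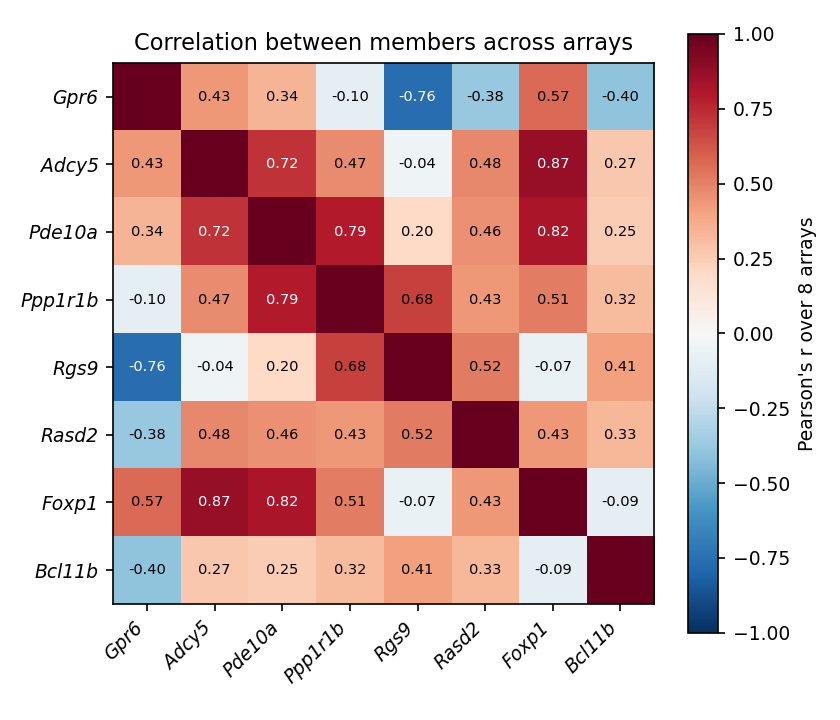
Pearson's r over the 8 arrays (colour scale from -1 to 1, value printed in each cell) for each pair of the 8 measured members, named on both axes. Adcy5, Pde10a and Foxp1 form a block of 0.72 to 0.87, and the lowest value is -0.76 for Gpr6 with Rgs9.

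The highest value was that of Adcy5 with Foxp1 (r = 0.87, rho = 0.81; exact permutation p = 0.00675 and 0.0218, adjusted 0.189 and 0.305). It was 0.67 without TNF-/- arrays 1 and 4, the arrays farthest from the Adcy5 median, and 0.88 within groups. Pde10a with Foxp1 gave r = 0.82 and rho = 0.71 (exact permutation p = 0.0138 and 0.0576, adjusted 0.193 and 0.538), and r was 0.90 within groups. It was 0.37 without TNF-/- array 4 and TNF+/+ array 1, the arrays farthest from the Pde10a median. Leaving these out also narrows the range of Pde10a, which by itself can lower r. Adcy5 with Pde10a likewise went from 0.72 to -0.04 without TNF-/- arrays 1 and 4. Pde10a with Ppp1r1b did not fall when the arrays farthest from the Pde10a median were left out: r was 0.79 with all arrays (rho = 0.81; exact permutation p = 0.0241 and 0.0218, adjusted 0.225 and 0.305) and 0.88 without TNF-/- array 4 and TNF+/+ array 1. Those farthest from the Ppp1r1b median, TNF+/+ arrays 4 and 2, were not left out of this pair.

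Gpr6 and Rgs9, whose promoters are printed above, gave the lowest of the 28 values, with r = -0.76 and rho = -0.67 (exact permutation p = 0.0352 and 0.0831, adjusted 0.246 and 0.559). It was -0.82 without TNF-/- array 4 and TNF+/+ array 1, and -0.30 once the group means were taken out. Gpr6 was the lower and Rgs9 the higher of the pair in every array labelled TNF-/-, relative to their own means over the 8 arrays. Ppp1r1b and Rgs9, both on chromosome 11 and 251 measured genes apart, gave r = 0.68 (rho = 0.62; exact permutation p = 0.0616 and 0.115, adjusted 0.288 and 0.559), and 0.13 without TNF+/+ arrays 2 and 4.

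**Figure D4:**
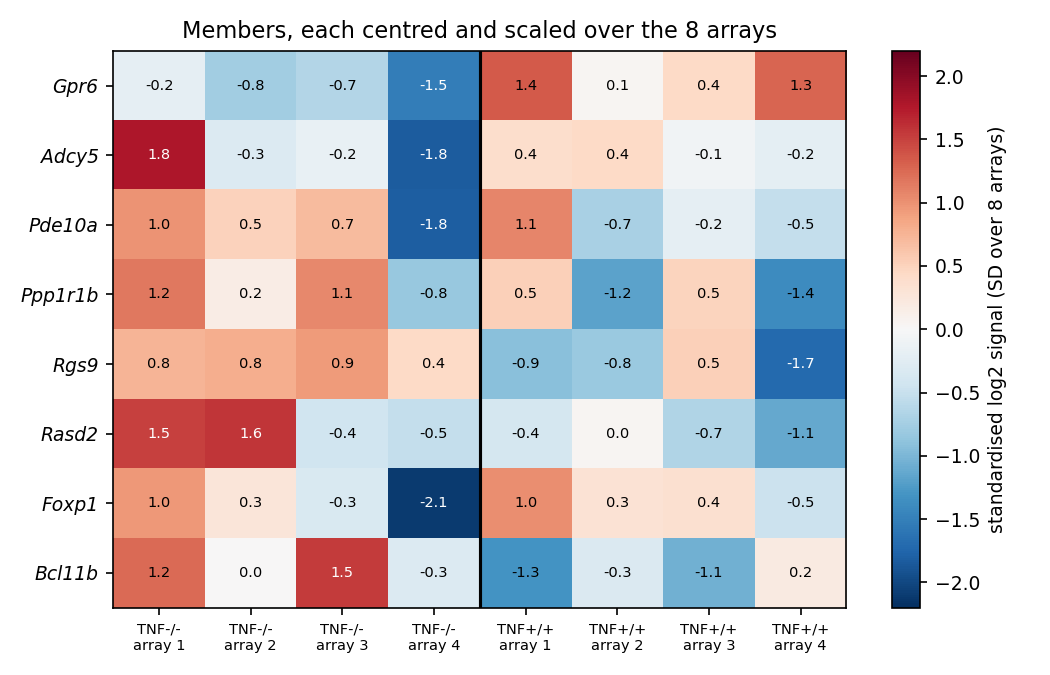
Signal of each measured member (rows) in each array (columns), centred and divided by its SD over the 8 arrays, with the value printed in each cell and a black line between TNF-/- and TNF+/+. TNF-/- array 4 holds the lowest values of Gpr6, Adcy5, Pde10a and Foxp1 (-1.52 to -2.10), while Rgs9 is above its mean there at 0.44.

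Single arrays bore on this pattern to differing degrees. The median r of the pairs was 0.21 without TNF-/- array 1 and 0.33 without TNF-/- array 4, beside 0.42 with all arrays. The mean standardised signal of the 8 members was highest in TNF-/- array 1 (1.02) and lowest in TNF-/- array 4 (-1.06), both of the same genotype label. TNF-/- array 4 held the lowest signal for 4 of the 8 members and TNF+/+ array 4 for 3. Markers of other cells moved in TNF-/- array 4 as well: 4 cholinergic markers had their highest mean there (5.36, against 4.84 to 5.11 elsewhere), with their lowest in TNF-/- array 1, and 12 inhibitory neuron markers had their highest (7.71, against 7.49 to 7.63), while 9 microglial markers had their lowest (6.16, against 6.32 to 6.52). The part of these in the members' signals was not tested. Markers common to neurons did not set TNF-/- array 4 apart, with a mean of 10.82 there and 10.74 to 10.84 elsewhere.

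Means of marker lists were also set side by side for the groups. They did not overlap for 11 thalamic markers (7.33 to 7.37 under TNF-/-, 7.26 to 7.32 under TNF+/+) or for the 9 microglial markers (6.16 to 6.33 and 6.34 to 6.52). Those of 10 oligodendrocyte markers, 9.28 to 9.41 and 9.40 to 9.69, overlapped by little, and 5 of these 10 genes had no overlap, all lower, beside 3.5% of all genes. Those of the 12 inhibitory neuron markers, GABA neurons like the striatal ones, also overlapped by little (7.59 to 7.71 and 7.49 to 7.61), with a median difference of 0.14; 2 of these 12 had no overlap, both higher, beside 4.16% of all genes. One was Gad2, a gene of GABA synthesis, at 0.32 ± 0.06 (SE; limma, adjusted p = 0.172). The list did not move as 1: 8 of the 12 were higher and 4 lower, Slc32a1 among the latter at -0.12 ± 0.06 (SE). The part of these lists in the differences of the striatal genes was not tested. Without TNF+/+ array 1, where the cerebellar markers were high, the difference of Gpr6 was -0.355 (limma, adjusted p = 0.39).

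The genes whose signals followed the members most closely were found by Pearson's r with the mean standardised signal of the 8 members, among 9961 genes brighter than the median gene. The 8 highest were Zmiz1, Trim9, Fgfr1, Neurl1b, Pi4ka, Znrf1, Sez6l and Shc3, with r from 0.944 to 0.965 over the 8 arrays, and from 0.77 to 0.92 without TNF-/- arrays 1 and 4. Each was higher in TNF-/- array 1 than in TNF-/- array 4, as for Zmiz1 at 9.89 and 9.44. This order follows from their choice, since the members' mean was highest in the former array and lowest in the latter. None passed the test between genotypes (limma, adjusted p = 0.615 to 0.997), and none is among the 40 other striatal genes. Of those, 33 were bright enough to be ranked. Drd2 ranked highest (267 of 9961, r = 0.77), followed by the muscarinic receptor gene Chrm4 (463, r = 0.70). Arpp19 ranked lowest of the 33 (8868, r = -0.54), and Drd1 (8590, r = -0.50), Penk (7931, r = -0.40) and Tac1 (7729, r = -0.38) came just before it.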

How the data were processed

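The deposited table holds the authors' log2 signal of 35556 probe sets on 8 arrays. Per the submitters' processing notes, the tools were GCOS, GCRMA and Partek; what each did is not stated there. The log2 scale follows from the values (2.83 to 14.1). No 2 columns were identical, and 0 columns of values were left unused. Values were used as deposited, with no filter. Precision is limited by having 4 arrays in a group.

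The platform annotation pairs 21789 probe sets with 1 gene symbol, 1621 with several and lists 12146 not at all; a gene was read through its brightest probe set. The 2-sided comparison of genotypes used limma 3.58.1 (R 4.3.3) with eBayes, p-values being adjusted by Benjamini-Hochberg across the whole table, and with SAM rebuilt with all 70 assignments of the arrays. Both were tested on simulated data, with 50 probe sets shifted at each size. Of shifts of 0.2 limma recovered 2% and SAM 0%, and of shifts of 0.4 each recovered 24%. For shifts of 0.8 and 1.6 each recovered 72% and 92%. Of the calls 7.77% were false by limma and 7.84% by SAM. Most shifts of 0.4 or less were thus missed, so the lack of a call does not exclude a difference of that size. SE is limma's moderated standard error. Plots used matplotlib 3.10.9 in Python 3.11.15.

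The members and gene lists were chosen with earlier results of these data known. Named genes were the members, Tnf, the 6 other striatal genes with the smallest p, Drd1, Drd2, Penk and Tac1, and the 8 genes most alike in profile. Gng7, Chrm4, Gpr52, Slc35d3, Sp9, Pdyn, Ebf1, Arpp19, Gad2 and Slc32a1 were named after their values were seen. So were the genes with 1 array apart from the others. The planned 36 pairs of members became 28 without Adora2a. Promoter sequences are RefSeq's.
Alternatives were median centring, quantile normalization, leaving out dim or unnamed probe sets, eBayes with trend and robust settings, array weights, the mean of a gene's probe sets, SAM, the replicate number as a block, and leaving out arrays. The labels tie the shared replicate numbers to no litter or day.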

Additional observations from a re-analysis of the deposited data

Results flagged for a closer look

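In 132 groups of 4 arrays, 1 array stood apart from the other 3 in 9, and chance gives about 7. Apart refers to the gap as a share of the range of the 4 arrays (0.831 to 0.99 in these 9). The gap itself can be small in log2 units. Among the members the case was Pde10a in TNF-/- array 4, at 8.86 against 9.22 to 9.29. Among the other striatal genes it was Rasgrp2 in TNF-/- array 3 (8.11 against 7.93 to 7.94), and Six3 (4.15 against 4.36 to 4.40) and Zfp503 (4.63 against 4.56) in TNF+/+ array 3. Among list means it was that of the indirect pathway in TNF-/- array 4 (7.65 against 7.77 to 7.80), that of the 40 other striatal genes in TNF+/+ array 1 (7.54 against 7.52), the cerebellar mean in TNF+/+ array 1 (7.01 against 5.22 to 5.31), the microglial mean in TNF-/- array 4 (6.16 against 6.32 to 6.33) and the endothelial mean in TNF-/- array 3 (6.61 against 6.48 to 6.50).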

How the results depend on the processing

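Under the 18 alternatives the count of members past the threshold stayed at 0, as did that of the 40 other striatal genes. The directions of Gpr6, Ppp1r1b, Rgs9, Rasd2, Foxp1 and Bcl11b were kept in all 18. The probe set choices, eBayes settings, SAM and replicate block left each member's difference unchanged, so they could not turn a direction. Gpr6, whose direction leaving out arrays could not turn either, ran from -0.47 to -0.34, and its adjusted p by limma from 0.118 to 0.514. Adcy5 turned to 0.055 without TNF-/- array 4 (range with 1 array left out -0.165 to 0.055). Pde10a (range -0.017 to 0.125) turned to -0.017, -0.002 and -0.003 without TNF-/- array 1, TNF-/- array 3 and TNF+/+ array 2, and to -0.014 without TNF+/+ arrays 3 and 4 together, an alternative chosen after seeing the data. Probe sets past the limma threshold numbered 29 with all arrays, 63 among those with 1 gene symbol, 53 by SAM, 0 without TNF+/+ arrays 3 and 4, and 1 to 20 with 1 array left out. Tnf, whose alternatives were added after seeing the data, had a difference of 1.21 to 1.52 and an adjusted p by limma of 0.00251 to 0.216. It lost its call with the replicate block (0.129) and without TNF+/+ arrays 3 and 4 (0.216). With the replicate block 0 probe sets passed. Deviations from the group means correlated at 0.07 to 0.11 between arrays of the same number. Of the TNF-/- arrays 3 of 4 correlated best with the TNF+/+ array of their own number. Whether the numbers stand for a pairing was not tested. The counts of genes with no overlap were added after the values were seen: with 1 array left out they were 1 to 2 among the members (Rgs9 or Bcl11b joining Gpr6) and 5 to 8 among the other striatal genes, beside 10.2% to 14.7% of all genes, and without TNF+/+ arrays 3 and 4 they were 3 and 9, beside 21.4% of all genes. The median r of the pairs was 0.21 to 0.46 with 1 array left out. The cause of these changes was not tested.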
